A study of Arabidopsis thaliana with 9 samples.

Results

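The SPL (SQUAMOSA PROMOTER BINDING PROTEIN-LIKE) genes described here are 10 Arabidopsis thaliana genes of this transcription factor family that the microRNA miR156 is known to target. These members are SPL2, SPL3, SPL4, SPL5, SPL9, SPL10, SPL11, SPL13A, SPL13B and SPL15. They were named by gene identifier, out of 18861 genes listed in at least 1 of the 3 expression tables. A gene enters a group's table when its mean there exceeds 1 RPKM (a read number corrected for the length of the gene and the size of the library), so a gene missing from a table averaged at most 1 RPKM there. Of the 10 genes, 7 were listed for leaf, 5 for wild-type callus and 3 for emf2 callus, and SPL3, SPL9 and SPL15 were in none of the tables. Of all genes, leaf had 16694 listed, wild-type callus 16703 and emf2 callus 16646. The rows described were thus selected on the group mean RPKM in each table, and listing is given as a description, with no test.

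The study sequenced polyadenylated RNA from 3 groups of 3 libraries, labelled as biological replicates. The leaf and wild-type callus groups are labelled Col-0 and the mutant group emf2. Rosette leaves came from wild-type plants kept 1 week on medium and then 2 weeks on soil under 16 h of light. Callus is unorganised tissue that keeps proliferating on hormone medium, and here it was started from wild-type or emf2 cotyledons on a medium with 2.2 μM of the auxin 2,4-dichlorophenoxyacetic acid and 0.46 μM of the cytokinin kinetin, with the first 7 days in the light and the rest in darkness, and was taken at 6 to 8 weeks. EMF2 encodes a subunit of the Polycomb complex that places H3K27me3, a histone mark of silenced genes, and the file headers name the allele emf2-1. Leaf and callus thus differ in organ, hormones, light and age at once, and these cannot be told apart here. Whether plants were pooled in a library is not given in the sources used here.

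In Arabidopsis, miR156 is abundant in young plants and declines with age. It guides the cleavage and translational repression of SPL transcripts, so SPL proteins accumulate as the plant matures, and this timer sets the change from juvenile to adult leaves and contributes to flowering. SPL9 and SPL15 act in this change and switch on MIR172 genes, whose product represses AP2-like repressors of flowering. SPL3, SPL4 and SPL5 encode small proteins that promote floral identity genes, SPL2, SPL10 and SPL11 act in lateral organ development, and the SPL13 genes act in vegetative phase change. Neither miR156 itself nor SPL protein was measured in these libraries, which hold messenger and other polyadenylated RNA.

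The miR156 pairing site is what the members share, and it is shown here so that the regulated stretch of each transcript can be seen beside its level. Sequences were read from the RefSeq TAIR10.1 assembly, 5′ to 3′ as RNA. In the microRNAs the capitals mark the seed, bases 2 to 8.
miR156a to miR156f: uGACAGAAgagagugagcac
miR156g: cGACAGAAgagagugagcac
miR156h: uGACAGAAgaaagagagcac
miR157d: uGACAGAAgauagagagcac
miR157a to miR157c: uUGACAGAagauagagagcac
All of the miR156 guides and miR157d carried the seed GACAGAA, whereas miR157a, miR157b and miR157c begin 1 base earlier and so had the seed UGACAGA.

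The best match to the complement of the 20-base miR156a guide was taken in each annotated transcript. In the sites below, the capitals mark the bases that lie opposite guide bases 2 to 8, and these were without mismatch in all 10 genes.
SPL2, SPL9, SPL10, SPL11, SPL13A, SPL13B and SPL15 (coding sequence): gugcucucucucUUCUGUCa
SPL4 (3′ UTR): cugcucucucucUUCUGUCa
SPL5 (3′ UTR): ccgcucucucucUUCUGUCa
SPL3 (3′ UTR): uugcuuacucucUUCUGUCa
The site was identical in 7 genes, with 1 mismatch to the complement of the guide. SPL4 had 2 mismatches, SPL5 had 3, and SPL3 had 2, of which 1 was a G:U pair. Among 27440 protein-coding genes searched, 13 (0.0474%) held a match with at most 3 mismatches, and these included all 10 members. SPL6 held the same coding site as SPL2 and is not among the members. The sites lie at chr5:17360758-17360777 in SPL2 (minus strand), chr1:9505541-9505560 in SPL10 (minus), chr1:9503618-9503637 in SPL11 (plus), chr5:20582738-20582757 in SPL13A (minus), chr5:20616080-20616099 in SPL13B (minus), chr1:19807090-19807109 in SPL4 (plus) and chr3:5140598-5140617 in SPL5 (minus).

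The libraries held 39.5 to 53.1 M reads assigned to listed genes, as recovered from the RPKM values. The listed members rested on 232 to 3275 reads in each library. Leaf markers marked the leaf libraries: the 4 mesophyll markers summed to between 30232 and 51189 RPKM in leaf, while the 3 that were listed in callus summed to 4.51 to 39.1 (wild type) and 4.99 to 12.2 (emf2). Of 5 callus and root founder markers, leaf listed 0, wild-type callus 4 and emf2 callus 5. EMF2 stood at 13.0, 15.5 and 16.3 RPKM in emf2 callus, against 7.43, 6.78 and 7.55 in the wild type and 5.50, 6.07 and 29.6 in leaf, so its transcript was not lost in the mutant callus and its level does not check the label. Leaf replicate 3 stood apart in EMF2 and in 7 defence markers, which summed to 3392 RPKM against 220 and 661 in the other leaf libraries. Leaf replicate 2 stood apart in 5 listed heat markers, at 890 RPKM against 21.9 and 38.8. Wild-type callus replicate 2 lay among the emf2 libraries on the second principal component (13.3, with emf2 callus at 20.3, 24.0 and 2.56 and the other wild-type callus libraries at -18.4 and -41.8). The members' differences are given with and without these libraries.

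In the deposited RPKM, leaf held more SPL transcript than callus. The size of this gap depends on the scaling, as given below for single genes. The listed members summed to 107, 127 and 130 RPKM in the leaf libraries, 14.2, 10.6 and 14.8 in those of wild-type callus, and 6.25, 6.92 and 6.76 in those of emf2 callus, and every leaf library was above every callus library. These sums cover 7, 5 and 3 listed genes and count the SPL13 pair under both names, and the unlisted genes, each at a mean of at most 1 RPKM, are left out of them. Over SPL2, SPL10 and SPL11, which all tables list, the sums were 24.4, 23.2 and 13.8 RPKM in the leaf libraries, 7.75, 5.91 and 7.79 in those of wild-type callus, and 6.25, 6.92 and 6.76 in those of emf2 callus, so the callus groups overlapped. In a bulk sample, fewer cells that express a gene and less of its RNA per cell cannot be told apart.

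**Figure D1:**
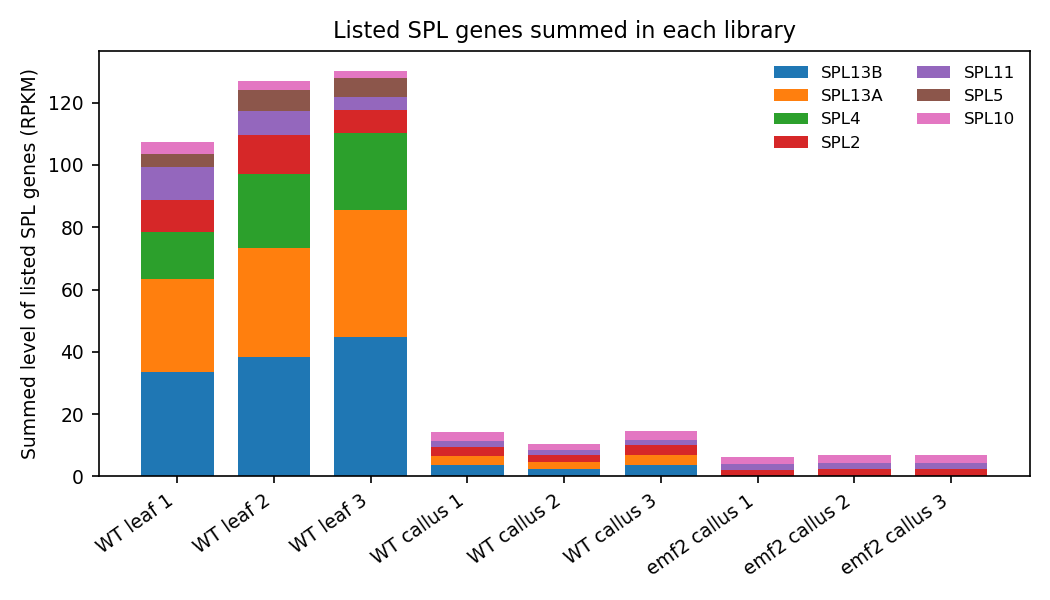
Summed RPKM, as deposited, of the listed SPL genes in each of the 9 libraries, stacked by gene on an axis from 0. Leaf libraries reach 107 to 130 RPKM, mostly from SPL13A, SPL13B and SPL4, wild-type callus 10.6 to 14.8 and emf2 callus 6.25 to 6.92.

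The highest deposited levels were those of SPL13A (AT5G50570) and SPL13B (AT5G50670), copies on chromosome 5 that lie 30843 bases apart. In leaf, SPL13B was at 33.4, 38.3 and 44.7 RPKM (38.8 ± 5.66, SD, n = 3). In wild-type callus it was at 3.58, 2.27 and 3.62 RPKM (3.16 ± 0.765), so that every callus library was below every leaf library. SPL13A was at 30.1, 35.1 and 40.8 RPKM in leaf (35.3 ± 5.36), and wild-type callus gave 2.85, 2.39 and 3.34 (2.86 ± 0.476), again without overlap. Neither gene was listed in emf2 callus, where each averaged at most 1 RPKM. Their 1080-base coding sequences were 100% identical, and so were all 1817 bases of the SPL13B transcript compared with that of SPL13A. Reads from this shared sequence therefore cannot be told apart. The longest SPL13A transcript has 2308 bases, so part of it lies outside the shared stretch. The nearly equal levels of the 2 genes are counted as 1 measurement of the pair. In addition, 96 exonic bases of SPL13A overlap AT5G50565 on the other strand, a gene with a level of 5.42 ± 0.477 RPKM in leaf, close to the 6.14 ± 0.568 of wild-type callus.

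SPL2, SPL10 and SPL11 were the members listed in all 3 groups. SPL2 (AT5G43270, chromosome 5) was at 10.2, 12.6 and 7.48 RPKM in leaf (10.1 ± 2.57), wild-type callus gave 3.00, 2.31 and 2.98 (2.77 ± 0.395), and emf2 callus 2.11, 2.53 and 2.41 (2.35 ± 0.218). Leaf was above both kinds of callus in every library, and the callus groups overlapped. SPL11 (AT1G27360, chromosome 1) was at 10.5, 7.61 and 4.09 RPKM in leaf (7.38 ± 3.19), wild-type callus gave 1.82, 1.46 and 1.75 (1.68 ± 0.191), and emf2 callus 1.91, 1.85 and 1.88 (1.88 ± 0.0336). Its leaf libraries differed among themselves by more than those of any other listed member relative to the mean, and still lay above all callus libraries.

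SPL10 (AT1G27370) differed from its neighbour SPL11. It was at 3.75, 2.98 and 2.20 RPKM in leaf (2.98 ± 0.775), wild-type callus gave 2.93, 2.15 and 3.06 (2.71 ± 0.493), emf2 callus 2.23, 2.54 and 2.47 (2.41 ± 0.162), and all 3 groups overlapped. The 2 genes lie tail to tail on chromosome 1, with their 3′ ends 1088 bases apart, and their coding sequences were 87.1% identical over the shorter one. Over the 9 libraries, SPL11 lay closer to SPL2 than to SPL10: the Euclidean distance between log2(RPKM + 1) profiles centred on their means was 0.72 from SPL11 to SPL2 and 2.02 from SPL11 to SPL10.

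SPL4 and SPL5, small members with the pairing site in the 3′ UTR, were listed in leaf alone. SPL4 (AT1G53160, chromosome 1) was at 15.1, 23.6 and 24.6 RPKM in leaf (21.1 ± 5.22), which is at least 21.1-fold above the bound of 1 RPKM on the mean of either callus group. SPL5 (AT3G15270, chromosome 3) was at 4.29, 6.87 and 6.27 RPKM (5.81 ± 1.35), at least 5.81-fold above that bound. For both genes the lowest leaf library was replicate 1. SPL5 shares 477 exonic bases with AT3G15260 on the other strand, whose leaf level was 14.2 ± 1.70 RPKM and whose level in wild-type callus was 8.90 ± 1.27. The kit used does not mark the strand, so reads from the shared stretch cannot be assigned. SPL4 shares 197 exonic bases with the annotated MIR156i on the other strand, which was in no table.

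SPL3, SPL9 and SPL15 averaged at most 1 RPKM in leaf as well as in callus, so nothing can be said of how they differ between groups. SPL3 encodes the smallest protein of the SPL3, SPL4 and SPL5 group, and SPL9 and SPL15 are the pair most often tied to leaf phase change. Each shares exonic bases with a gene on the other strand: 955 bases with a long noncoding RNA gene for SPL3, 68 with MIR156j for SPL9 and 1455, the whole exonic length, with AT3G57910 for SPL15. The kit does not mark the strand, and how reads in shared stretches were counted is not given. Absence from the tables therefore need not mean a low transcript level for SPL3 and SPL15. AT3G57910 was listed throughout, with leaf at 3.02 ± 0.299 RPKM, wild-type callus at 4.09 ± 0.123 and emf2 callus at 4.51 ± 0.537. The listed member nearest to the bound was SPL11 in wild-type callus at 1.68 RPKM, and values below the bound are not given in the tables.

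**Figure D2:**
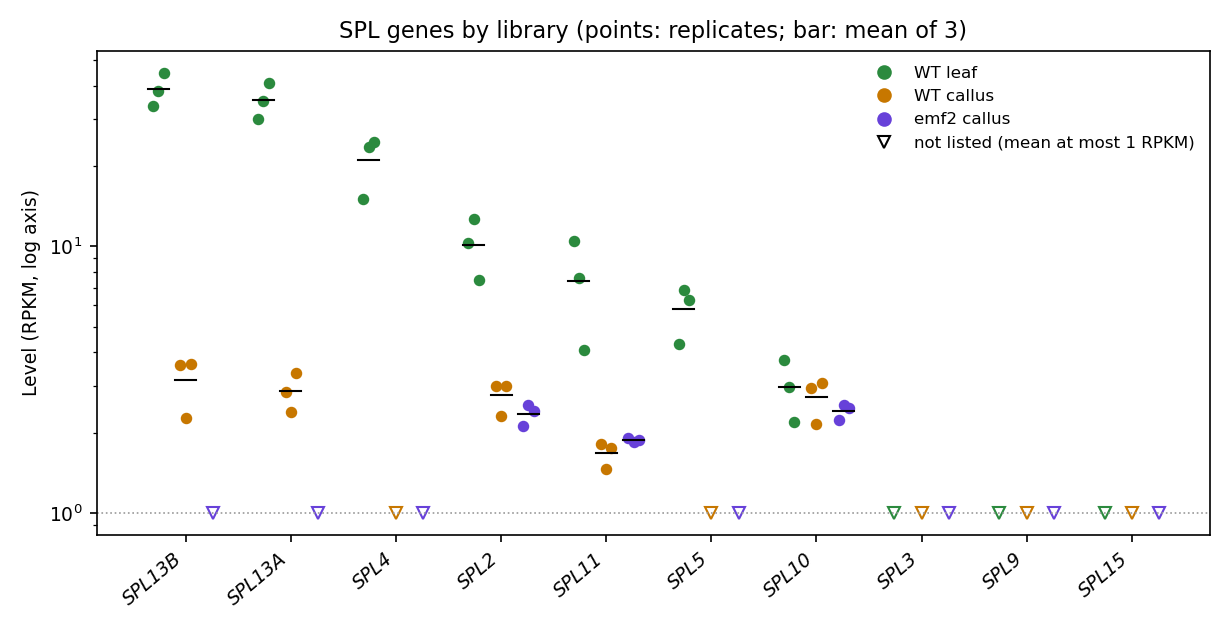
RPKM of each SPL gene on a log axis, with 1 point per library, a bar at the mean of 3 libraries and an open triangle at 1 RPKM where the gene was not listed in a group. In leaf, SPL13A and SPL13B lie between 30.1 and 44.7 RPKM while SPL10 lies between 2.20 and 3.75, and in callus every listed gene lies between 1.46 and 3.62 RPKM.

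By level per gene length, the order in leaf was SPL13B, SPL13A, SPL4, SPL2, SPL11, SPL5 and SPL10. SPL13A was above SPL4, SPL4 above SPL2, and SPL5 above SPL10 without overlap between libraries. SPL13B and SPL13A overlapped, as did SPL2 with SPL11 and SPL11 with SPL5. The mean of SPL13B was above that of 81.7% of the genes listed in leaf, SPL4 above 69.3%, SPL2 above 49.1% and SPL10 above 16.3%. How reads shared by the SPL13 pair were counted is not given, so the rank and percentile of each SPL13 gene depend on that choice. In wild-type callus the order was SPL13B, SPL13A, SPL2, SPL10 and SPL11, and SPL11 alone was separated from its neighbour. The span from highest to lowest mean was thus 38.8 to 2.98 RPKM among the listed members in leaf, and 3.16 to 1.68 in wild-type callus. In emf2 callus SPL10 and SPL2 overlapped and SPL11 was below both.

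The comparison of wild-type callus with leaf asks how the transcriptome of callus differs from that of a differentiated organ. Differences are on the log2(RPKM + 1) scale, which understates changes of low genes, and were fitted with limma over all 14780 genes listed in both tables, with p-values adjusted over all of them by the Benjamini-Hochberg method and a threshold of 0.05. Of the 5 members that could be compared, 4 were lower in callus by at least 2-fold and 1 did not pass, and the median log2 difference of the 5 was -1.57 (0.06 over all genes tested). With SPL13A and SPL13B counted as 1 measurement, 3 of 4 were lower and the median was -1.56. The threshold was passed by 66.4% of all genes tested, and 22.3% were lower in callus by at least 2-fold. Since the members were named with earlier results of these data known, these counts are descriptions and nothing is read from them beyond the members' own values.

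SPL13B was lower in wild-type callus than in leaf by 12.3-fold in mean RPKM (log2 difference -3.27, SE 0.19, limma adjusted p = 1.2e-05). SPL13A, which shares the sequence of the SPL13B transcript and is counted with it as 1 measurement, gave a log2 difference of -3.23 (SE 0.16, adjusted p = 6.23e-06). SPL11 was lower by 4.41-fold (-1.57, SE 0.26, adjusted p = 0.000695) and SPL2 by 3.65-fold (-1.54, SE 0.18, adjusted p = 9.22e-05). In each of these genes, with the SPL13 pair under both names, every callus library was below every leaf library. The share of all genes tested that separated in this way is not given here. Without leaf replicate 3, the log2 differences were -3.16 for SPL13B, -3.12 for SPL13A, -1.89 for SPL11 and -1.72 for SPL2. Without wild-type callus replicate 2 they were -3.11, -3.14, -1.51 and -1.45, and without leaf replicate 2 they were -3.27, -3.23, -1.51 and -1.38. All 4 passed without each of these libraries. SPL10 did not pass (-0.09, SE 0.17, adjusted p = 0.652), with a 95% interval of the difference from -0.47 to 0.29. It was -0.24 without leaf replicate 3, -0.08 without leaf replicate 2 and 0.02 without wild-type callus replicate 2, and did not pass in any of these.

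The size of these differences depends on the scaling of the tables. The deposited values are not scaled to the read total of each library: rescaling to those totals moved the median log2 difference of all genes up by 0.77, to 0.84. On that scale SPL13B, SPL13A, SPL11 and SPL2 stayed lower in callus at -2.43, -2.40, -0.85 and -0.76. SPL10 was then higher in callus, at 0.58 (adjusted p = 0.00582), which was below the median gene on the same scale. For a gene listed in leaf alone, the same rescaling takes 0.93 on the log2 scale off the ratio between leaf and wild-type callus levels.

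emf2 callus was also compared with leaf, in a comparison that shares its leaf libraries with the one above. The fit covered 14693 genes, of which 66.4% passed and 21.8% were lower in emf2 callus by at least 2-fold. SPL2 was lower by 4.30-fold (log2 difference -1.70, SE 0.18, limma adjusted p = 4.66e-05) and SPL11 by 3.92-fold (-1.46, SE 0.25, adjusted p = 0.001). SPL10 did not pass (-0.20, SE 0.17, adjusted p = 0.305, 95% interval -0.58 to 0.18). With library-total scaling SPL2 was at -0.91 and SPL11 at -0.71, and SPL10 was higher in emf2 callus (0.48, adjusted p = 0.0138), where the median of all genes was 0.88. Without leaf replicate 3 the differences were -1.89 for SPL2, -1.79 for SPL11 and -0.35 for SPL10, and without leaf replicate 2 they were -1.54, -1.41 and -0.19, of which SPL10 alone did not pass. SPL4, SPL5, SPL13A and SPL13B were listed in leaf and not in emf2 callus.

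Callus of the emf2 mutant was compared with wild-type callus to ask what loss of a Polycomb subunit changes. None of the 3 members listed in both tables passed, against 0.272% of all 16185 genes tested (44 genes by limma, with 1539 at an unadjusted p under 0.05). For the members, the unadjusted p was 0.379 for SPL2, 0.513 for SPL10 and 0.68 for SPL11, so 0 of 3 was under 0.05. SPL2 differed by -0.16 (95% interval -0.57 to 0.24), SPL10 by -0.11 (-0.49 to 0.27) and SPL11 by 0.11 (-0.47 to 0.69) on the log2 scale. SPL11 did not overlap between the callus groups, with the 3 emf2 libraries at 1.85 to 1.91 RPKM and the 3 wild-type libraries at 1.46 to 1.82, but its difference was smaller than its SE of 0.26. The share of all genes tested whose libraries separated between the callus groups is not given here, and nothing is read from this separation. SPL13A and SPL13B were listed in wild-type callus and not in emf2 callus. Their wild-type means were at least 2.86-fold and 3.16-fold above the bound of 1 RPKM on the emf2 mean, with no test. Without wild-type callus replicate 2, 200 genes passed in place of 44, and SPL2, SPL10 and SPL11 still did not, at -0.26, -0.23 and 0.05.

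**Figure D3:**
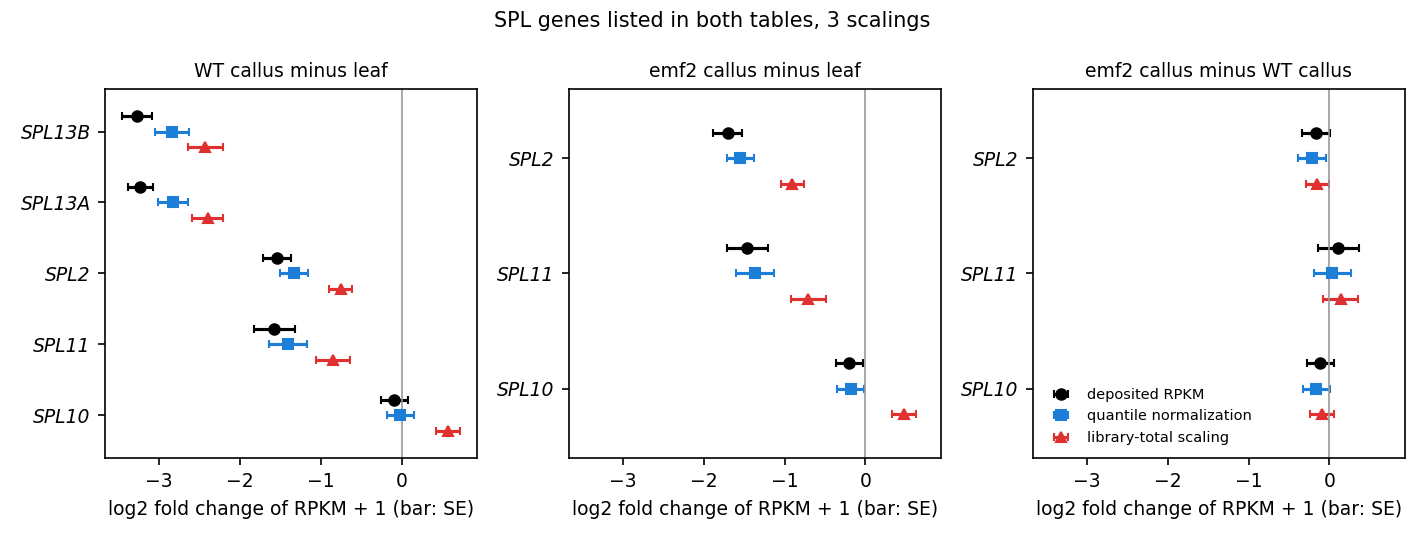
Log2 difference in RPKM + 1 for the SPL genes listed in both tables of each comparison, under the deposited scaling, quantile normalization and library-total scaling, with bars of 1 SE. SPL2, SPL11, SPL13A and SPL13B lie below 0 against leaf under all 3 scalings, SPL10 moves from -0.09 to 0.58 between scalings, and the 3 genes compared between emf2 and wild-type callus lie close to 0.

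The members also varied between replicates of a group. In wild-type callus, replicate 2 had the lowest level of all 5 listed members, including the SPL13 pair, whereas it was the lowest library for 36.3% of all genes listed there. SPL10 in that library was at 71.7% of the mean of the other 2. The same library had the highest MIR156C, at 4.16 RPKM against 1.52 and 1.29, and was the highest library for 40.3% of all genes listed there. In emf2 callus, the library with the highest MIR156C, replicate 2, had the highest SPL2 and SPL10 and the lowest SPL11. The wild-type pattern rests on 1 library, whose place on the second principal component is given above. The part of MIR156C or of that place in the lower SPL levels was not tested.

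In leaf, the lowest and the highest library differed between members. Replicate 3 had the lowest SPL2, SPL10 and SPL11, at 65.5%, 65.4% and 45.2% of the mean of the other leaf libraries, and the highest SPL4, SPL13A and SPL13B. It was the lowest library for 3 of 7 members, beside 48.9% of all listed leaf genes. It was the highest for 3 of 7, with the SPL13 pair under both names, beside 34.8%. These counts are near the shares of all genes, and nothing particular to the members is read from them. The defence markers and EMF2 were highest in replicate 3 and the summed mesophyll markers lowest, and their part in the SPL levels of that library was not tested. Replicate 1 had the lowest SPL4, SPL5, SPL13A and SPL13B and the highest SPL10 and SPL11. It was thus lowest for 4 of 7 members, with the SPL13 pair under both names, beside 24.3% of all listed leaf genes. It was highest for 2 of 7, beside 32.3%.

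The genes with the profile most like that of each member listed in all groups were found among 12536 or 12537 candidates with a group mean of at least 5 RPKM, by Euclidean distance between centred log2(RPKM + 1) profiles over 9 libraries. For SPL2 they were APX3, an ascorbate peroxidase (distance 0.28, with leaf at 74.6 RPKM and wild-type callus at 24.0), and PDE318 (0.31). For SPL11 they were IMS1, an isopropylmalate synthase of leucine synthesis (0.34, with leaf at 22.6 RPKM and wild-type callus at 7.41), and AT3G61770 (0.35). For SPL10 they were SABRE (0.26) and AT1G79010 (0.27), both nearly level across the groups, with SABRE at 7.74 RPKM in leaf, 6.85 in callus of the wild type and 6.72 in that of emf2.

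The other genes of the pathway were read from lists of known components. Upstream, 1 of 12 MIR156 and MIR157 precursor genes was listed anywhere. In the RefSeq annotation these loci span 98 to 221 bases, and the lengths behind the deposited values are not given. How well such short loci are captured was not tested, so nothing is read from the unlisted ones. MIR156C was at 1.52, 4.16 and 1.29 RPKM in wild-type callus (2.32 ± 1.59), emf2 callus gave 1.75, 3.21 and 1.96 (2.31 ± 0.788), and leaf averaged at most 1. It is listed in callus, where the SPL levels were low, and not in leaf, with a wild-type mean at least 2.32-fold above the bound for leaf. That mean rests on replicate 2, without which it was 1.40 RPKM, and the emf2 mean was 1.86 without its own highest library, also numbered 2. The callus groups did not differ beyond the spread (log2 difference 0.07, 95% interval -0.76 to 0.89, limma adjusted p = 0.97), and without wild-type callus replicate 2 the difference was 0.44 (adjusted p = 0.385). Precursor transcripts are short-lived, and their level is not that of the mature microRNA. None of the 5 MIR172 precursor genes, annotated at 95 to 133 bases, was in any table, and the same limit holds for them.

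Among the 6 AP2-like genes that miR172 targets, which delay flowering, 3 were listed in all groups and their directions differed. AP2 rose from 2.81 ± 0.349 RPKM in leaf to 10.8 ± 0.895 in wild-type callus, higher by 1.63 on the log2 scale (SE 0.16, limma adjusted p = 3.37e-05). TOE1 fell from 21.4 ± 5.95 RPKM in leaf to 4.04 ± 0.42 in wild-type callus (log2 difference -2.12, SE 0.25, adjusted p = 0.000113). TOE2 rose from 2.20 ± 0.164 RPKM in leaf to 9.9 ± 2.11 in wild-type callus (log2 difference 1.75, SE 0.15, adjusted p = 1.77e-05). The shares of all tested genes past the threshold were 34.2% higher and 32.1% lower. Without leaf replicate 3 the differences were 1.67 for AP2, -2.30 for TOE1 and 1.77 for TOE2. SNZ was listed in leaf alone at 23.7, 18.4 and 8.61 RPKM, TOE3 in leaf alone at a mean of 1.73 RPKM, and SMZ in wild-type callus alone at 2.35, 3.29 and 3.70 RPKM. On the other strand, SMZ shares 328 exonic bases with AT3G54980 and TOE3 shares 119 with AT5G67170. Reads from these stretches cannot be assigned, since the kit does not mark the strand.

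TOE2 was the 1 gene of all these lists that passed between the callus groups. Its wild-type callus libraries were at 11.7, 10.4 and 7.57 RPKM and its emf2 libraries at 3.13, 2.80 and 2.66 (2.86 ± 0.244), without overlap. The log2 difference was -1.48 (SE 0.15, limma adjusted p = 0.0144), where 0.142% of all genes tested were lower and 0.136% lower by at least 2-fold. The call was lost, with the direction and size kept, in a fit of the 2 callus groups alone (adjusted p = 0.054) and without wild-type callus replicate 1 or any 1 of the emf2 libraries (adjusted p between 0.0545 and 0.0952). emf2 callus against leaf gave 0.27 for TOE2, which did not pass (adjusted p = 0.144). In that comparison AP2 was higher in callus (1.56, SE 0.16, adjusted p = 4.21e-05) and TOE1 lower (-2.64, SE 0.25, adjusted p = 2.86e-05), and of all genes tested 34.7% were higher and 31.7% lower.

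Downstream, 5 of 7 direct targets of SPL factors, namely FUL, AP1, LFY, TCL1 and TRY, were in no table. These are floral identity genes and trichome repressors. SOC1, which integrates flowering signals, was listed in leaf alone, at 10.2, 7.89 and 24.8 RPKM (14.3 ± 9.19), and without leaf replicate 3 its mean was 9.06. AGL42, a relative of SOC1, was listed in callus alone. It was at 1.49, 1.17 and 0.894 RPKM in wild-type callus, emf2 callus gave 1.67, 2.49 and 1.76, and the difference did not pass (log2 difference 0.44, SE 0.16, limma adjusted p = 0.478).

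Genes of microRNA production and of the control of MIR156 genes were listed mostly in all groups. Of 6 machinery genes, 4 were higher in wild-type callus than in leaf and 2 did not pass, where 34.2% of all genes tested were higher. With library-total scaling all 6 were higher, as were 62.0% of all genes tested. HST, an exportin-like factor of microRNA biogenesis, rose from 2.74 ± 0.232 RPKM in leaf to 6.89 ± 0.544 in wild-type callus (log2 difference 1.07, SE 0.10, adjusted p = 3.32e-05), where 15.0% of all genes tested were higher by at least 2-fold. Of the 11 regulators of MIR156 genes, 9 were listed in leaf and wild-type callus, of which 4 were higher in callus, 1 was lower and 4 did not pass, beside 34.2% higher and 32.1% lower among all genes tested. Under library-total scaling 8 of the 9 were higher and 0 lower, beside 62.0% and 17.4% of all genes tested. CLF, a Polycomb methyltransferase, rose from 3.00 ± 0.614 RPKM in leaf to 8.31 ± 0.837 in wild-type callus (log2 difference 1.23, SE 0.13, adjusted p = 6.86e-05). VAL1, a repressor that binds MIR156 genes, rose 2.28-fold, from 7.98 ± 0.778 RPKM in leaf to 18.0, 17.5 and 18.9 in the callus libraries (adjusted p = 3.16e-05). AGL18 rose from 3.84 ± 0.748 to 10.5 ± 2.57 RPKM (log2 difference 1.24, SE 0.19, adjusted p = 0.000442).

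AGL15, like AGL18 a MADS factor reported to promote MIR156 expression, was listed in wild-type callus alone, at 8.97, 9.30 and 7.19 RPKM (8.49 ± 1.13), and averaged at most 1 in both other groups. TPS1, which makes the sugar signal trehalose 6-phosphate, was listed in leaf alone at 14.5, 14.5 and 5.77 RPKM. Between emf2 and wild-type callus, 0 of 9 regulators and 0 of 6 machinery genes passed by limma. At an unadjusted p under 0.05 there was 1, VAL1, which was at 12.8 ± 0.69 RPKM in emf2 callus (log2 difference -0.48, adjusted p = 0.155). Against leaf, 4 of 9 regulators were higher in emf2 callus, 1 was lower and 4 did not pass, and 4 of 6 machinery genes were higher and 2 did not pass, beside 34.7% higher and 31.7% lower among all genes tested. With library-total scaling 8 of 9 and 6 of 6 were higher, beside 63.8% of all genes. CLF was 2.51-fold higher in mean RPKM (adjusted p = 0.000123).

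**Figure D4:**
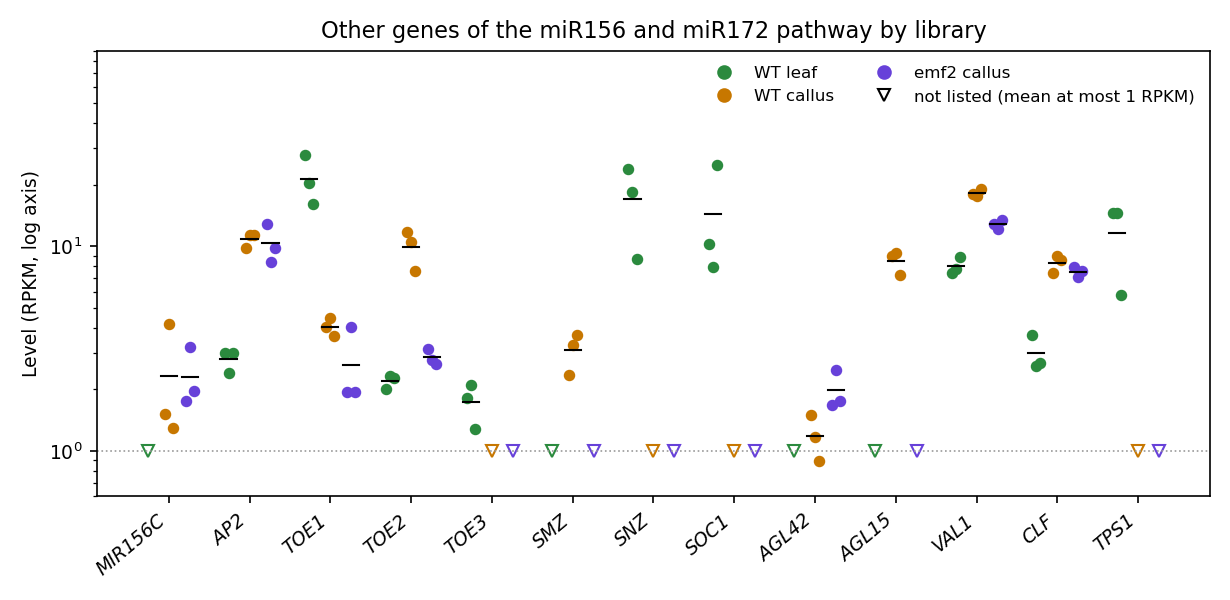
RPKM of MIR156C, the AP2-like genes, SPL targets and MIR156 regulators on a log axis, with 1 point per library, a bar at the mean of 3 libraries and an open triangle at 1 RPKM where the gene was not listed in a group. TOE2 lies between 7.57 and 11.7 RPKM in wild-type callus and between 2.01 and 3.13 in leaf and emf2 callus, while TOE1 is highest in leaf.

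SPL genes outside the members served as a comparison within the family. Of 7, SPL8 was in no table and 6 were listed in all groups, of which 2 were lower in wild-type callus than in leaf, 0 higher and 4 did not pass, beside 32.1% lower and 34.2% higher among all genes tested. With library-total scaling 1 was lower and 4 were higher, and with quantile normalization 1 was lower and 3 were higher, and both scalings moved the median of all genes upward. The median of the 6 was below that of all genes in the deposited values (-0.21 against 0.06) and with library totals (0.69 against 0.84). With quantile normalization it was not below (0.36 against 0.34). SPL1 was the gene that was lower under all 3 scalings. It fell from 158, 169 and 89.8 RPKM in leaf to 31.9, 32.2 and 28.0 in wild-type callus (log2 difference -2.10, SE 0.23, limma adjusted p = 6.64e-05), and at 36.0 ± 1.95 in emf2 callus (-1.87 against leaf, adjusted p = 0.000121). SPL1 has no site like that of the members: its best match to the complement of the guide had 7 mismatches. SPL6, with the site of SPL2, was at 4.99 ± 1.20 RPKM in leaf, with wild-type callus at 3.27 ± 0.568 and emf2 callus at 3.80 ± 0.305. It passed in the first comparison (-0.48, SE 0.17, adjusted p = 0.033), with overlapping libraries, and turned to 0.26 (adjusted p = 0.157) with library-total scaling. Of 11 alternatives, 4 kept the call, 6 lost it with the same direction and this 1 reversed. SPL6 was chosen for mention after its site was found.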

How the data were processed

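The authors' deposited values are RPKM per the file headers. There is a table for each group, restricted to genes averaging over 1 RPKM in it. Per the submitters' processing notes, FastQC, cutadapt, TopHat and the TAIR10 build were used, with no versions. The counter of reads, and its treatment of reads with several positions, are not given in the sources used here. The TruSeq RNA V2 kit does not mark strand, and which library ran on which lane is not given in the labels. Values of 99.97% of the genes (18856 of 18861) were whole reads up to a factor per library and gene (relative tolerance 1e-11, against 0 of 1000 decoys), which gave depths and the library-total scaling. Read numbers of single genes rest on annotated gene spans.

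Group differences were fitted on log2(RPKM + 1) with least squares per gene and the variance moderation of limma 3.58.1 (with trend) in R 4.3.3, over genes listed in both tables, two-sided, with Benjamini-Hochberg adjustment and a threshold of 0.05. A gene listed in 1 table is given against the bound of 1 RPKM, with no test. The fit was tested on simulated data. The labels number the replicates, and they do not state that equal numbers mark a shared plant, batch or day. Correlations of the deviations of same-numbered libraries ran from -0.21 to 0.61. The highest was between replicate 3 of emf2 callus and replicate 3 of wild-type callus. The main fit left the numbers out, and a replicate block was among the alternatives. Replicates are labelled biological, and their sources are not described further.

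Sites were searched in RefSeq TAIR10.1 transcripts with Biopython 1.88, and coordinates are of that assembly. Members and lists were chosen with earlier results of these data known. Beside the members, up to 4 genes per list and comparison were named, those past the threshold with at least a 2-fold change, then those listed in 1 table. The 2 nearest genes by profile were named for each member listed in all tables.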

Additional observations from a re-analysis of the deposited data

How the results depend on the processing

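The alternatives were a pseudocount of 0.1, a mean of at least 5 RPKM, quantile normalization, library-total scaling, the 2 compared groups alone, a replicate block and leaving out each library. For the SPL members, 123 of 125 values kept their side of the threshold. Of these, SPL10 in wild-type callus against leaf, which did not pass, changed sign from -0.09 to 0.05 without leaf replicate 1 and to 0.02 without wild-type callus replicate 2, and the other members kept their direction. The 2 that crossed the threshold were SPL10 against leaf under library-total scaling, at 0.58 in wild-type and 0.48 in emf2 callus. Passing genes numbered 8107 to 11725 for wild-type callus against leaf and 8074 to 11855 for emf2 callus against leaf. Their split into higher and lower moved from 5058 and 4750 to 9159 and 2566 with library totals and 6851 and 3642 with quantiles, and for emf2 callus from 5094 and 4660 to 9377 and 2478 and to 6892 and 3603. For emf2 against wild-type callus, the 44 genes became 26 with pseudocount 0.1, 74 with quantiles, 20 with the 2 groups alone, and between 4 (without emf2 replicate 1 or 2) and 200 (without wild-type callus replicate 2) when 1 library was left out. It was 10, 21 and 8 without wild-type callus replicate 1, wild-type callus replicate 3 and emf2 replicate 3. The replicate block gave 26 genes there, and 9873 and 9870 against leaf, and it changed no call of a member. With library totals, SPL6 against leaf turned from -0.48 to 0.26 in wild-type callus, and HXK1, outside the naming rule, from -0.72 to 0.17 in wild-type callus and from -0.79 to 0.13 in emf2 callus. The causes were not tested. The number of libraries per group and the 1 RPKM bound limit what can be said of the unlisted SPL genes.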
